A study of Mus musculus with 3 samples.

Results

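A set of enzymes that make or break down serotonin, catecholamines, acetylcholine and nitric oxide was measured in the distal colon of wild-type mice. They are the 10 genes Tph1, Tph2, Ddc, Maoa, Maob, Th, Dbh, Chat, Ache and Nos1, chosen by name, of 24346 gene symbols in the tables. All 10 were listed, and the level of each is the sum of the FPKM of its isoforms, a unit of fragments scaled to transcript length and to the mapped fragments of the library. The series consists of 3 RNA-seq files of polyadenylated RNA from flash-frozen distal colon of mice aged 8 weeks. All 3 files carry the genotype WT, the strain label JAX (a supplier's name) and the treatment label steady-state, so there is 1 group and no contrast between conditions. The RNA is that of the whole piece of tissue, with mucosa and muscle together, and the labels do not say whether the files come from separate animals or from a pool.

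Serotonin and the catecholamines are made by short enzyme chains with a committing step. In serotonin synthesis, tryptophan hydroxylase turns tryptophan into a hydroxylated amino acid, which aromatic amino acid decarboxylase then converts to serotonin, and in the gut wall most of this takes place in the enterochromaffin cells of the epithelium. Catecholamine synthesis starts with tyrosine hydroxylase, shares the decarboxylase, and continues to noradrenaline through dopamine beta-hydroxylase. Monoamine oxidases break down all of these amines, while acetylcholine is made by choline acetyltransferase and split by acetylcholinesterase, and nitric oxide of inhibitory enteric motor neurons comes from the neuronal nitric oxide synthase.

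Replicates 1, 2 and 3 held 3.78e+06, 3.79e+06 and 1.24e+06 mapped fragments, as worked out from the authors' 95% bounds. Over 8771 single-isoform genes averaging 1 FPKM or more, the variance between files was a median 0.679 of the sampling variance, against 0.693 where sampling alone acts. The chi-square test called 14 of these genes (0.16%) at a Benjamini-Hochberg adjusted p of 0.05, and 444 (5.06%) had an unadjusted p under that value. The spread between the 3 files was thus close to sampling noise, and their names in the deposit carry the same lane and index, so together they count as a single sample here. Each ± is therefore the SD over 3 files of 1 sample, a measurement error with no estimate of the spread between animals. All 7 distal colon markers and all 5 smooth muscle markers stood at 1 FPKM or more in every file, while none of 5 markers of the proximal gut did, and Gata4 and Pdx1 were listed at 0.

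The breakdown enzyme Maoa and the shared decarboxylase Ddc were the most abundant of the 10. Tph1 and Th, which head synthesis chains, and Chat and Nos1, which make acetylcholine and nitric oxide, stood at or under 3.14 FPKM. Of the 10 enzymes, 7 stood at 1 FPKM or more in every file, and 48.5% of all symbols did so. Their median of the mean levels was 3.13 FPKM, against 1.25 FPKM over all symbols. Tph2 and Th were listed at 0 in every file, and Chat stayed under 1 FPKM. The 8 enzymes with any fragment spanned 484-fold in mean level, from Maoa to Chat. Of the 6076 fragments assigned to the enzymes, 75.2% belonged to Maoa. In a whole tissue, fewer cells of a type and less RNA per cell cannot be told apart.

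**Figure D1:**
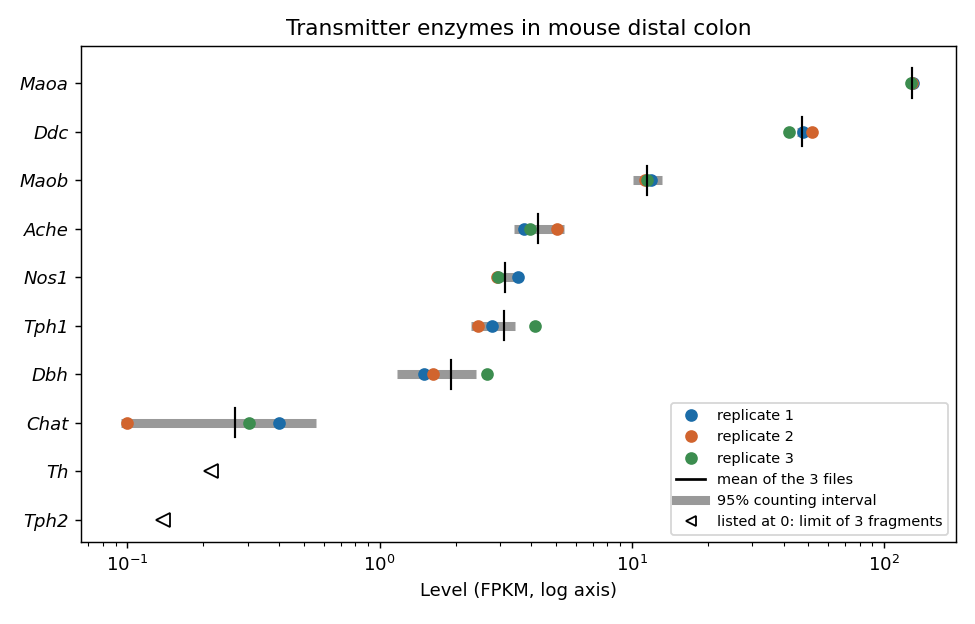
Levels of the 10 enzymes on a log axis of FPKM, with points for the 3 files, a black line for their mean, a grey bar for the 95% counting interval around the depth-weighted level, and open triangles at the limit of 3 fragments for enzymes listed at 0. Maoa lies at 128 to 131 FPKM in the 3 files and Chat at 0.0999 to 0.400 FPKM, and Tph2 and Th have limits of 0.138 and 0.214 FPKM.

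Of the serotonin hydroxylases, Tph1 was detected and Tph2 was not. Tph1, the tryptophan hydroxylase of enterochromaffin cells and the pineal gland (chromosome 7, 46644641 to 46672537, minus strand of GRCm38), stood at 2.78, 2.46 and 4.13 FPKM in replicates 1, 2 and 3. Replicate 3, the shallowest, was the highest, and these values rest on 43, 38 and 21 fragments. The mean was 3.12 ± 0.888 FPKM, at the 59.3rd percentile of all symbols, and the 95% counting interval around the depth-weighted level ran from 2.31 to 3.44 FPKM. Tph2, the hydroxylase of serotonergic neurons in the brain and the gut (chromosome 10, 115078641 to 115185022, minus strand), had 0 fragments in all 3 files. A count of 0 allows up to 0.138 FPKM, taken as 3 fragments over the 3 files together, and this limit and the intervals cover counting error only. With the lower end of the Tph1 interval set against that limit, Tph1 was at least 16.7-fold higher than Tph2.

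Tph1 has a pair of start sites 5160 bases apart, and the isoforms that begin at the downstream one held nearly the whole signal. Their share of the Tph1 FPKM was 99.998% in replicate 1, 99.998% in replicate 2 and 99.992% in replicate 3. The isoform from the upstream start stood at 6.3e-05, 5.46e-05 and 0.000324 FPKM, with upper 95% bounds in the authors' files of 0.120, 0.120 and 0.366 FPKM. The first exons lie at 46667263 to 46667377 for the downstream start and 46672112 to 46672537 for the upstream one (GENCODE M21). The 250 bases before each start are shown because the signal lay almost wholly at one start. They are from RefSeq on GRCm38.p6, read 5′ to 3′ on the minus strand, with motif matches in capitals.

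Tph1 downstream start, chr7:46667378-46667627: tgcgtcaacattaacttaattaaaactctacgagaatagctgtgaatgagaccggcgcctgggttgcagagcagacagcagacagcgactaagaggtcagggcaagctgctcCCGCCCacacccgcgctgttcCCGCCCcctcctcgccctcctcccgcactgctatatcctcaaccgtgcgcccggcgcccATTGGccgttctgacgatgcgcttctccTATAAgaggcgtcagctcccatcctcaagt

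Tph1 upstream start, chr7:46672538-46672787: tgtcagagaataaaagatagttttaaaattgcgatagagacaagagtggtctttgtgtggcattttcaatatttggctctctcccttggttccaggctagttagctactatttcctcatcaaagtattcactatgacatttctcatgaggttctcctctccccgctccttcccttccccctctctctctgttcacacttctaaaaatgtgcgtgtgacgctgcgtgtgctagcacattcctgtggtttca

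The window of the downstream start held a TATA box core (TATAA) 26 to 30 bases before the start, a CCAAT box (CCAAT, here as its reverse complement) 54 to 58 bases before it, and a pair of GC boxes (GGGCGG, as reverse complements) at 112 to 117 and 133 to 138 bases. The window of the upstream start held none of the motifs searched. On either strand, TATAA occurs in 22.7%, CCAAT in 33.8% and GGGCGG in 33.0% of the 32536 RefSeq windows of the same length, so each match is a description and not a site of binding. The window of Tph2, which had no fragment, also held TATAA 26 to 30 bases before its start.

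Ddc was the second most abundant enzyme. Ddc encodes the aromatic amino acid decarboxylase, which makes serotonin and dopamine from their hydroxylated precursors (chromosome 11, 11814101 to 11898144, minus strand). It stood at 47.6, 51.8 and 42.2 FPKM in replicates 1, 2 and 3, from 331, 363 and 97 fragments, and replicate 3 was the lowest. The mean was 47.2 ± 4.79 FPKM, at the 94.2nd percentile of all symbols. Ddc exceeded Tph1 in every file, by 17.1-fold, 21.1-fold and 10.2-fold in replicates 1, 2 and 3, and the ratio of the means was 15.1. The counting interval of the depth-weighted ratio ran from 13.9 to 21.3.

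Ddc also has a pair of start sites, 7736 bases apart, and in human and rat the gene is known for separate neuronal and non-neuronal first exons. Here the isoform from the upstream start stood at 39.9, 51.7 and 37.7 FPKM and that from the downstream start at 7.71, 0.00183 and 4.46 FPKM. The upstream start took 83.8%, 99.9965% and 89.4% of the Ddc FPKM, a mean of 91.1% ± 8.22. It was the major start in all 3 files, but its exact share was not stable. The isoforms differ in their first exon, at 11898012 to 11898144 (133 bases) for the upstream start and 11890338 to 11890408 (71 bases) for the downstream one. Taken as separate features, both isoforms were called different between the files (chi-square test over 15459 isoforms). The Benjamini-Hochberg adjusted p was 2.51e-10 for the downstream and 0.0209 for the upstream isoform. Values under 0.01 FPKM, here the downstream isoform in replicate 2, took their variance from depth and length, not from the authors' bounds. The downstream p therefore does not rest on those bounds alone. In replicate 2 the authors' upper bound for the downstream isoform was 0.297 FPKM, under its level in replicates 1 and 3. Of all isoforms tested in this way, 2903 were called, against 14 genes when genes with 1 isoform were tested. The summed level of Ddc does not rest on this division of fragments.

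Ddc upstream start, chr11:11898145-11898394: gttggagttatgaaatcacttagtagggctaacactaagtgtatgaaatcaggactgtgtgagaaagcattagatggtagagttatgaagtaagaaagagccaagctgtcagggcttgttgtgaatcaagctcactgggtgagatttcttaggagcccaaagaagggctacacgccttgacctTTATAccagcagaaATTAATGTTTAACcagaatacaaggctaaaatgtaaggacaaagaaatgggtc

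Ddc downstream start, chr11:11890409-11890658: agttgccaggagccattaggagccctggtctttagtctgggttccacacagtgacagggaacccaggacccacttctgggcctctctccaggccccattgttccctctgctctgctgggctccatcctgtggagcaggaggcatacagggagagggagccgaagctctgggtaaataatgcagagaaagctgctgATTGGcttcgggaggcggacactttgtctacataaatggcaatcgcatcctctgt

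These windows are shown because the gene's signal lay mostly at one of them, again from RefSeq on GRCm38.p6 and 5′ to 3′ on the minus strand, with matches in capitals. The window of the upstream start held TATAA, as its reverse complement, 63 to 67 bases before the start. It also held a match with 2 mismatches to the HNF1 motif 41 to 53 bases before it. HNF1 proteins are transcription factors of liver, kidney and intestinal epithelium, and a match this close occurs in 1.25% of the 32536 windows on either strand. That motif was searched after the window had been read. The window of the downstream start held a CCAAT box, as its reverse complement, 51 to 55 bases before its start and none of the other motifs. The G and C content was 40.8% in the upstream and 56.0% in the downstream window.

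**Figure D2:**
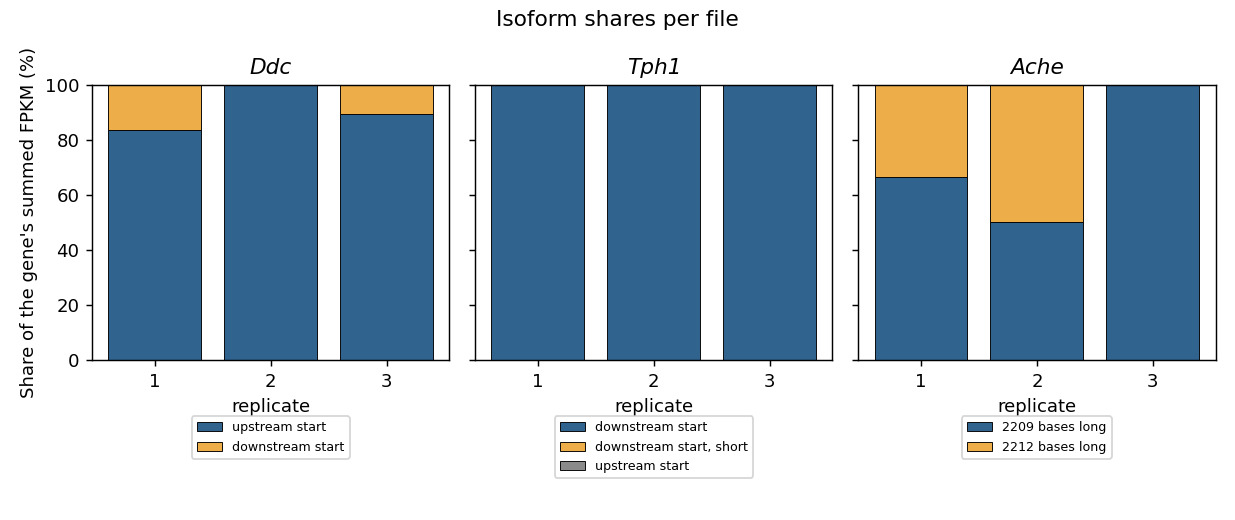
Share of each gene's summed FPKM, in percent, held by its isoforms in replicates 1, 2 and 3, for the 3 enzymes with more than 1 isoform. The upstream start holds 83.8% or more of Ddc in every file and the downstream start nearly all of Tph1, whose other isoforms are too small to see, while the shorter Ache isoform is the larger in every file, at 66.7%, 50.2% and 99.992%.

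Of the monoamine oxidase transcripts, that of Maoa was the more abundant. Maoa, the monoamine oxidase of the outer mitochondrial membrane that prefers serotonin and noradrenaline (chromosome X, 16619698 to 16687812, plus strand), stood at 131, 130 and 128 FPKM in replicates 1, 2 and 3. The 3 files lay close together, with a mean of 130 ± 1.13 FPKM from 4571 fragments. Maoa lay at the 98.1st percentile of all symbols, ranking 465 of 24346. Maob, its neighbour on the chromosome, which prefers phenylethylamine (16709281 to 16817366, minus strand), stood at 11.9, 11.3 and 11.4 FPKM, a mean of 11.5 ± 0.307 FPKM at the 78.8th percentile. The Maoa to Maob ratio was 11.0, 11.5 and 11.2 in the 3 files, with a counting interval of 9.84 to 12.9 for the depth-weighted ratio, so the files agreed on it within sampling noise. Set against hydroxylases, Maoa and Maob together stood 51.2-fold, 57.4-fold and 33.9-fold above Tph1 and Tph2 together. The interval of that depth-weighted ratio ran from 41.0 to 61.4. Replicate 3, with the highest Tph1 value, lay below this interval.

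The catecholamine enzymes were at the lower end. Th, the tyrosine hydroxylase that commits tyrosine to catecholamines (chromosome 7, 142892776 to 142899966, minus strand), had 0 fragments in all 3 files, which allows up to 0.214 FPKM. It was at least 10.8-fold lower than Tph1, reckoned in the same way. Dbh, which makes noradrenaline from dopamine inside vesicles (chromosome 2, 27165507 to 27183204, plus strand), stood at 1.50, 1.62 and 2.66 FPKM in replicates 1, 2 and 3, from 12, 13 and 7 fragments. The mean was 1.93 ± 0.636 FPKM, with replicate 3 the highest, and the counting interval ran from 1.17 to 2.42 FPKM. Dbh, which acts after Th in the same chain, was at least 5.48-fold higher than Th by the same reckoning. Pnmt, which makes adrenaline, also had no fragment (limit 0.472 FPKM). The window before the RefSeq start of Th, 142899995, held a cyclic AMP response element (TGACGTCA) 38 to 45 bases before it, found in 1.56% of all windows, and the data say nothing on whether it was used.

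Among the acetylcholine enzymes, the transcript of Ache, for breakdown, stood above that of Chat, for synthesis. Rates of breakdown and synthesis were not measured. Chat, the choline acetyltransferase of cholinergic neurons (chromosome 14, 32408203 to 32465909, minus strand), stood at 0.400, 0.0999 and 0.304 FPKM in replicates 1, 2 and 3. These values were worth 4, 1 and 1 fragments, and the counting interval ran from 0.0943 to 0.560 FPKM. Ache, which splits acetylcholine (chromosome 5, 137288254 to 137294466, plus strand), stood at 3.75, 5.04 and 3.93 FPKM, a mean of 4.24 ± 0.698 FPKM from 78 fragments. All 3 Ache values lay above all 3 Chat values. The Ache to Chat ratio was 9.37, 50.4 and 12.9 in the 3 files, and the counting interval of the depth-weighted ratio ran from 7.38 to 47.3. Ache has isoforms of 2209 and 2212 bases from the same start, and the longer one took 33.3%, 49.8% and 0.00790% of the FPKM. The split between isoforms that differ by so few bases is unstable, and only the sum is used.

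Chat stood below Slc18a3 and Slc5a7, which are also genes of cholinergic neurons. Slc18a3, the vesicular acetylcholine transporter, lies wholly inside the first intron of Chat on the same strand (32462438 to 32464850) and had 1.64, 1.53 and 1.79 FPKM, from 32 fragments. The choline transporter Slc5a7 had 1.53, 1.00 and 1.28 FPKM, from 56 fragments. Both were above Chat in every file; they were named after their values had been seen. How reads in the shared locus were divided, and whether strand was used, was not stated in the labels or headers.

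Nitric oxide synthesis was represented by Nos1, the neuronal synthase (chromosome 5, 117866839 to 117958840, plus strand), at 3.55, 2.91 and 2.95 FPKM in replicates 1, 2 and 3. The mean was 3.14 ± 0.359 FPKM from 268 fragments, at the 59.3rd percentile, and the counting interval ran from 2.82 to 3.60 FPKM. Nos1 is a long transcript, so it had more fragments than Tph1 at nearly the same level per length. It exceeded Chat in every file, by 8.89-fold, 29.1-fold and 9.72-fold. The interval of the depth-weighted ratio was 5.62 to 34.1. An antisense gene, Gm26995, matches 177 bases (1.75%) of the Nos1 transcript, and without strand information fragments of that stretch cannot be told apart.

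**Figure D3:**
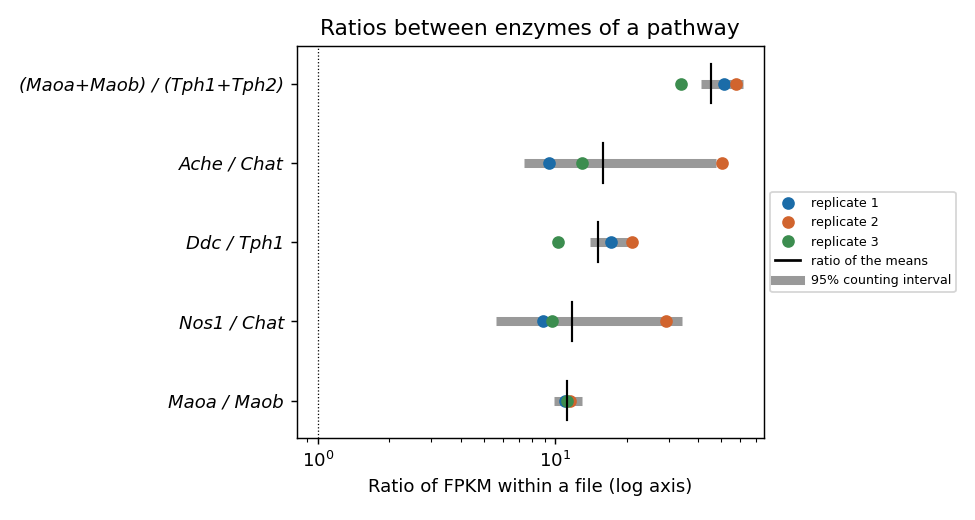
Ratios of FPKM within a file between enzymes of one pathway or of neurons, on a log axis, with points for the 3 files, a black line for the ratio of the means and a grey bar for the 95% counting interval of the depth-weighted ratio. All ratios lie above 1, the dotted line, in every file, with Maoa to Maob at 11.0 to 11.5 and Ache to Chat at 9.37 to 50.4.

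In order of mean level the enzymes ran Maoa, Ddc, Maob, Ache, Nos1, Tph1, Dbh and Chat, with Tph2 and Th at 0. Maoa, Ddc, Maob and Ache were separated from each next enzyme down to Ache by file ranges and counting intervals that did not overlap. Ache and Nos1 had file ranges that did not overlap and counting intervals that did, and their depth-weighted ratio was 1.36, with an interval of 1.04 to 1.75. Nos1 and Tph1, at 3.14 and 3.12 FPKM, did not differ beyond their spread: Nos1 was the higher in replicates 1 and 2 and Tph1 in replicate 3, and the interval of the ratio ran from 0.894 to 1.43. Tph1 and Dbh overlapped in file ranges and in counting intervals, but within each file Tph1 was the higher, by 1.86-fold, 1.51-fold and 1.56-fold. The interval of that depth-weighted ratio ran from 1.10 to 2.54. Dbh was separated from Chat on both measures. Chat could not be separated from the limits of Tph2 and Th. Of the 4 enzymes that entered the test between files, Maoa, Maob, Nos1 and Dbh, each had a chi-square adjusted p of 0.997, against 0.16% of all genes called.

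The other genes of these pathways were measured to place the enzymes. Of 74 such genes in 8 lists, 46 stood at 1 FPKM or more in every file and 5 were listed at 0, with a median of 3.35 FPKM. The tetrahydrobiopterin genes, which supply the cofactor of Tph1, Tph2, Th and nitric oxide synthase, were high: 7 of 8 reached 1 FPKM in every file and the median was 28.5 FPKM. Qdpr, which regenerates the cofactor, stood at 42.2 ± 2.44 FPKM, Pcbd1, its recycling dehydratase, at 35.1 ± 4.29 FPKM and Pts, a synthesis enzyme, at 32.1 ± 3.10 FPKM. Qdpr shares 200 bases (14.5%) with a transcript of another gene and is uncertain to that extent. Smaller stretches are shared by Aldh2 (3.36%), Slc18a2 (2.67%), Dynll1 (6.21%) and Mrvi1 (1.86%).

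Monoamine transport genes were low, with 3 of 9 at 1 FPKM or more in every file and a median of 1.08 FPKM. Slc6a4, the serotonin transporter, led them at 8.80, 7.06 and 6.22 FPKM and lay above Tph1 in every file. The vesicular monoamine transporter Slc18a2 stood at 2.04 ± 0.329 FPKM. No fragment was found for Slc6a3, the dopamine transporter (limit 0.104 FPKM), or for Slc22a2 (limit 0.173 FPKM). Genes that act after monoamine oxidase or beside it included higher ones: the aldehyde dehydrogenase Aldh2 stood at 207 ± 12.7 FPKM, the sulfotransferase Sult1a1 at 153 ± 3.95 FPKM and Aldh1b1 at 75.7 ± 3.85 FPKM. In that list of 12 genes, 6 reached 1 FPKM in every file, and Pnmt and the melatonin enzyme Asmt (limit 0.332 FPKM) were listed at 0.

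The kynurenine route, which takes tryptophan away from serotonin synthesis, had 5 of 10 genes at 1 FPKM or more in every file and a median of 1.36 FPKM. Ccbl1 (Kyat1), a kynurenine aminotransferase, stood at 15.3 ± 2.95 FPKM and Ccbl2 (Kyat3) at 4.02 ± 0.343 FPKM. Ido1, its first enzyme in the gut, stood at 8.66, 7.29 and 10.8 FPKM, above Tph1 in every file. Aadat had no fragment (limit 0.211 FPKM).

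Of the acetylcholine handling genes, 8 of 9 reached 1 FPKM in every file. The choline transporter-like genes Slc44a4 and Slc44a1 stood at 135 ± 1.67 and 49.5 ± 1.27 FPKM, and Acly, which makes acetyl-CoA, at 82.3 ± 1.41 FPKM. Butyrylcholinesterase, Bche, which also splits acetylcholine, stood at 8.09, 8.96 and 8.51 FPKM. All 3 values lay above all 3 of Ache, and Bche was likewise named after its values had been seen.

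Of 12 genes of nitric oxide production and arginine supply, 7 reached 1 FPKM in every file. The dynein light chain Dynll1, which binds Nos1, stood at 68.0 ± 2.01 FPKM and argininosuccinate lyase Asl at 15.5 ± 1.03 FPKM. Argininosuccinate synthase, Ass1, was listed at 26.1, 16.8 and 0.00173 FPKM; a transcript of Gm5424 matches 73.1% of it at 99.5% identity, and its level is uncertain. The other synthases were lower than Nos1 in every file, with Nos3, the endothelial one, at 0.801, 0.334 and 0.203 FPKM and the inducible Nos2 at 0.276, 0.138 and 0 FPKM, both named after their values had been seen. Of 6 nitric oxide target genes, 5 reached 1 FPKM in every file. Pde5a, which degrades cyclic GMP, stood at 29.4 ± 0.470 FPKM, Mrvi1, a smooth muscle target of cyclic GMP kinase, at 13.7 ± 1.45 FPKM and the guanylyl cyclase subunit Gucy1a3 at 7.99 ± 1.52 FPKM.

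**Figure D4:**
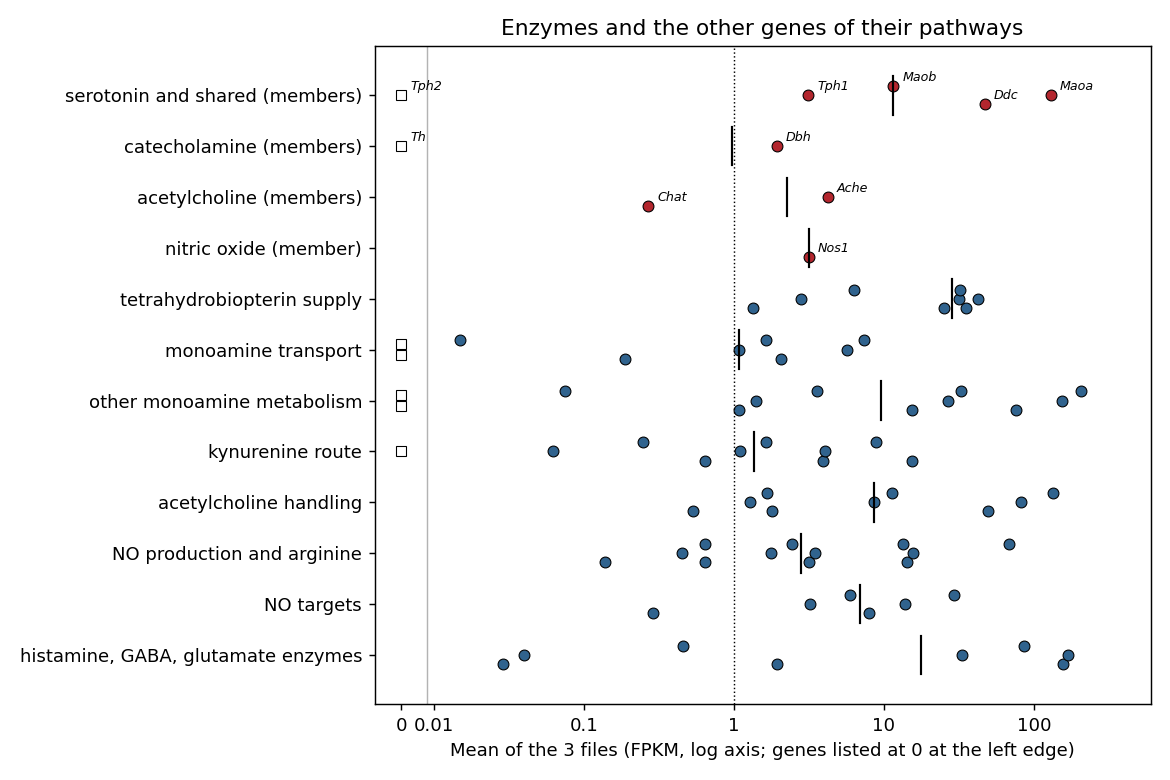
Mean FPKM of each gene over the 3 files, on a log axis, by list, with the enzymes in red, other pathway genes in blue, genes listed at 0 as open squares at the left edge, a black line at each list's median and a dotted line at 1 FPKM. The cofactor genes cluster around a median of 28.5 FPKM, far above Tph1 at 3.12 FPKM and Th at 0.

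Markers of the cell types that could hold these enzymes are given as whole lists. Enteroendocrine markers reached 1 FPKM in every file for 7 of 12 genes, and their sum ran from 294 to 315 FPKM over the files. Most of that sum was Pyy, at 231 ± 13.7 FPKM, followed by the granule proteins Chgb at 30.4, 27.7 and 31.9 FPKM and Chga at 28.8, 28.2 and 21.5 FPKM. The 5 markers under 1 FPKM in at least 1 file were Fev, Lmx1a, Pax4, Rfx6 and Cck, of which Fev and Lmx1a, transcription factors of enterochromaffin cells, stood at 0.740 ± 0.230 and 0.167 ± 0.220 FPKM. Enteric neuron markers reached 1 FPKM for 10 of 13 genes, with sums of 102 to 105 FPKM, and glial markers for 3 of 5, with sums of 10.6 to 11.9 FPKM. Of 6 tuft cell markers with values, cells that also express Chat, 1 reached 1 FPKM in every file, the sums ran from 5.84 to 7.93 FPKM and Il25 was listed at 0. Of 7 mast cell markers, which bear on Tph1, 2 did so, with sums of 13.0 to 15.3 FPKM. Those were Kit at 8.99 ± 0.532 and Cma1 at 5.24 ± 1.78 FPKM. Cpa3 and Tpsb2 stood at 0.208 ± 0.360 and 0.0954 ± 0.165 FPKM, and Mcpt4, Fcer1a and Ms4a2 were listed at 0. Of 5 sympathetic and adrenal markers 1, Npy, reached 1 FPKM in every file, with sums of 2.93 to 5.18 FPKM. Of 5 T cell and monocyte markers 4 did, with sums of 129 to 138 FPKM, most of it Lyz2. The part of each cell type in the levels of the enzymes was not tested.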

How the data were processed

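The members, lists and tests were chosen with earlier results of these data known. RNA was extracted with TRIzol and libraries made with an Illumina TruSeq kit, per the labels' protocols. FPKM values per isoform, with lower and upper 95% bounds, were deposited by the authors in Cufflinks tables, per the file headers; the read coverage signal deposited beside them was not used. Per the submitters' processing notes, the tools were Cufflinks 2.2.1, TopHat2 2.1.1 and Bowtie2 2.3.4.3. Their settings, strandedness and the handling of reads with several matches were not stated there. Those notes name GRCm39, but of 23140 symbols compared, 61.5% had the start base of RefSeq on GRCm38.p6, and positions are given on GRCm38.

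Isoform FPKM were summed per symbol and not rescaled. To recover the depth, the upper bound less the FPKM was read as 2 standard errors, and the FPKM squared over the squared standard error as fragments. In genes with 1 isoform over 800 bases and up to 30 fragments, 65.5% to 65.8% of values lay within 0.01 of a whole number. Those gave, by the Theil-Sen slope on length, the mapped fragments and a mean of 167 bases taken off each length. The fragments printed per gene, and the counting intervals, come from the FPKM, this depth and the shortened length, not from the bounds. Counting intervals are exact Poisson, and those of ratios exact binomial, at 95%, both around depth-weighted values. A 0 was given a limit of 3 fragments over the files together. The log2 ratios of the alternatives use a pseudocount of 0.1. Differences between files were tested by chi-square at an adjusted p of 0.05. The variances came from the bounds, or from depth and length for values under 0.01 FPKM.

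Every enzyme is named, and of each other list the 3 highest genes and those at 0; others named are said to be chosen later, and 1 gene that this rule names is not reported here. Of the genes listed, 1 (Sh2d6) had no row. Copies were sought with BLAST+ 2.17.0, as matches of at least 100 bases at 97% identity to GENCODE M21 transcripts of other genes; 22 of 83 pathway genes had one, and of the 10 enzymes only Nos1 did. A promoter sequence was found for 9 of the 10 enzymes, not for Maob. The calculations ran in Python 3.11.15 with SciPy 1.17.1, statsmodels 0.14.6, pandas 2.3.3, numpy 2.4.6 and matplotlib 3.10.9.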

Additional observations from a re-analysis of the deposited data

How the results depend on the processing

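No paired analysis was possible because all samples form 1 group. The number of enzymes at 1 FPKM or more in every file was 7, and it was 6 at a threshold of 2 FPKM and 7 under each of the other 7 alternatives. No log2 ratio between enzymes changed sign, and 52 of 64 recomputed ratios moved by no more than the SD over files. The others depend on the pseudocount of 0.1, mostly against an enzyme at 0. With a pseudocount of 0.01, Tph1 to Tph2 was 8.29 in place of 5.01, Th to Tph1 -8.29 in place of -5.01 and Dbh to Th 7.60 in place of 4.34 on the log2 scale. With a pseudocount of 1 they were 2.04, -2.04 and 1.55, Maoa to Maob was 3.38 in place of 3.48, Ache to Chat 2.05 in place of 3.56 and Nos1 to Chat 1.71 in place of 3.14. With libraries rescaled to TPM, the first 3 were 6.21, -6.21 and 5.53. The 14 genes called between files became 2903 with isoforms as separate features, the cause of which was not tested, and 7 to 10 when 1 replicate was left out. Rescaling also raised the 8 detected means, for example Maoa to 303 and Tph1 to 7.31. The mean of Ache was 2.99 FPKM by its highest isoform, against 4.24 as a sum. At this depth, Chat, with 6 fragments, and the enzymes at 0 cannot be ordered.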

Other observations

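Enzymes of histamine, GABA and glutamate were also measured. Aoc1, the diamine oxidase that degrades histamine in the gut, stood at 160, 158 and 149 FPKM, a mean of 155 ± 5.95 FPKM, while Hdc, the histidine decarboxylase that makes histamine, had 1 fragment over the 3 files (0.0394 FPKM). Abat, which degrades GABA, stood at 85.7 ± 2.55 FPKM, while the decarboxylases that make GABA stood at 0.458 ± 0.192 FPKM (Gad2) and 0.0287 FPKM (Gad1, 1 fragment). Glul, which makes glutamine from glutamate, was the highest of the list at 169 ± 4.41 FPKM. Of the 8 genes, 5 reached 1 FPKM in every file, and the list's median was 17.6 FPKM. Hdc, Gad1 and Gad2 were named after their values had been seen.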
